A study of Homo sapiens with 8 samples.

Results

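The 38 genes described here encode the autophagy machinery and its cargo receptors. They were chosen by gene symbol, and all 38 were found among the 18564 genes quantified in LP-1 cells, a human multiple myeloma line that carries t(4;14). Wild-type (WT) LP-1 cells and a bortezomib-resistant (BR) line derived from them received vehicle (DMSO) or 25 nM SI-2, an inhibitor of the transcriptional coactivator SRC-3, for 24 h. The BR cells had been cultured with bortezomib, a proteasome inhibitor, for 2 months according to the labels, and whether they are 1 clone or a pool is not given in the sources used here. Each of the 4 conditions has 2 libraries of total RNA, 8 in all. The paper describes the RNA-seq replicates of BR cells as biologically independent. For WT cells the sources used here do not say whether replicates came from separate cultures, so p-values measure the spread between these samples, which may be technical there. The labels do not say whether bortezomib was still present at harvest.

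Autophagy wraps cytoplasm, organelles and protein aggregates in a double membrane and delivers them to the lysosome. It starts at the ULK1 kinase complex, continues through a lipid kinase complex that marks the growing membrane, and depends on conjugation enzymes that attach ATG8 proteins such as LC3 to that membrane. Cargo receptors bind ubiquitylated cargo and ATG8 proteins at once, and the transcription factor TFEB drives many autophagy and lysosome genes. Plasma cells make large amounts of antibody protein, and autophagy is a disposal route beside the proteasome, which is the reason to look at these genes in cells selected with a proteasome inhibitor.

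Estimated counts summed to between 17997771 and 18570027 per library, and the TMM factors that scale for composition ran from 0.971 to 1.06. Of the plasma cell markers, JCHAIN was at 3478 to 5454 CPM (the count scaled to library size), XBP1 at 627 to 1091 and SDC1 at 16.5 to 38.3, while SLAMF7 was at 0.85 to 1.55 CPM. Of 12 markers of other cell types found, 2 were abundant enough to test, and the summed level of the 12 was 30.4 to 49.97 CPM in WT libraries and 88.3 to 157 CPM in BR libraries. PECAM1 made up most of it, at 26.2 to 46.5 CPM in WT and 83.4 to 91.3 CPM in BR cells. The second BR library with SI-2 stood apart, with COL1A1 at 53.7 CPM and COL1A2 at 8.06 CPM against at most 0.34 and 0.21 CPM in the other 7 libraries, and with EPCAM at 1.35 CPM. CD3E was at 0 in 6 and PAX5 at 0 in 7 of the 8 libraries. The part of these markers in the results was not tested, and values without the second BR library with SI-2 stand beside the results whose call or direction it changed. In bulk RNA, fewer cells of a type and less RNA per cell cannot be told apart.

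The autophagy genes were expressed well above the middle of all genes quantified. Their median level, as the mean FPKM of the 8 libraries, was 13.6, against 3.30 over all 18564 genes. Of the 18564, 13896 were abundant enough to test, against 37 of the 38. The 3.30 thus includes many genes of low level, and no median over the tested genes alone was taken. FPKM divides by gene length, so it was used to rank genes by level, and levels given in CPM are not corrected for length. A mean FPKM of at least 1 was reached by 36 of the 38 genes, of at least 10 by 25 and of at least 50 by 5. GABARAP, an ATG8 protein, was highest at 252 FPKM (214 to 287 over the libraries), followed by the cargo receptor SQSTM1 (p62) at 113 (80.7 to 158), GABARAPL2 at 96.4 (77.0 to 109), MAP1LC3B (LC3B) at 67.2 (60.2 to 76.5) and LAMP1, a major lysosomal membrane protein, at 54.4 (47.6 to 61.9). SQSTM1 and GABARAPL2 changed places between libraries, so their order is not clear of the spread, whereas MAP1LC3B was above LAMP1 in each of the 8 libraries although their ranges overlap.

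**Figure D1:**
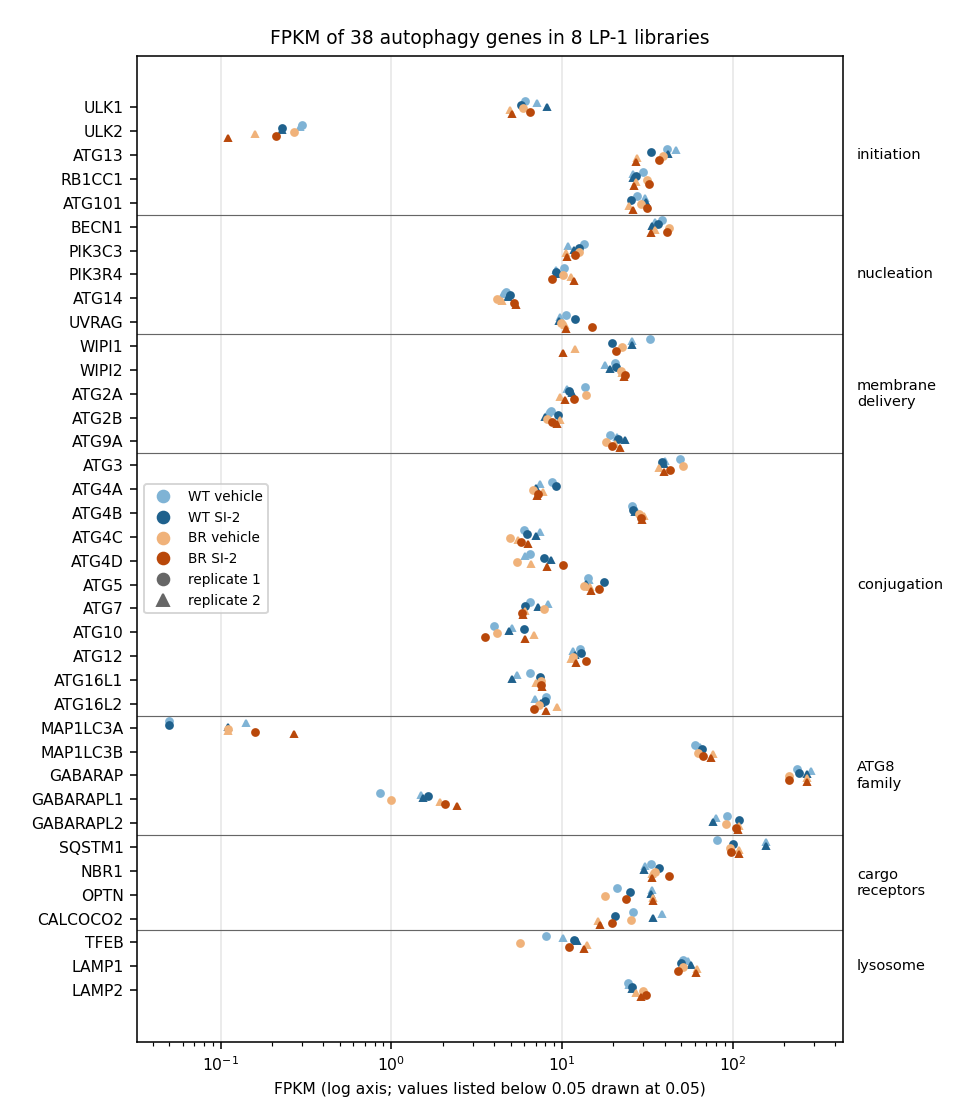
FPKM of each of the 38 genes in the 8 libraries, on a log axis, grouped by role. Circles are replicate 1, triangles replicate 2, and colors the 4 conditions. GABARAP, SQSTM1, GABARAPL2, MAP1LC3B and LAMP1 lie at the right, and ULK2, MAP1LC3A and GABARAPL1 at the left.

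The ATG8 family was uneven. GABARAP held a median of 59.3% of the family's summed FPKM (55.3% to 66.4% over the libraries), GABARAPL2 23.6%, MAP1LC3B 16.0% and GABARAPL1 0.378%. MAP1LC3A (LC3A) was listed at 0 FPKM in both first WT libraries and at no more than 0.27 FPKM in the others, and it was the only one of the 38 genes too low to test. ULK2, a paralog of the kinase ULK1, was at 0.11 to 0.30 FPKM, whereas ULK1 was at 4.97 to 8.18 FPKM. The conjugation enzymes had lower levels, with a median over 11 genes of 7.66 FPKM, than the initiation complex, with 28.2 over 5 genes, and the cargo receptors, with 31.2 over 4 genes. MAP1LC3B shares most of its sequence with MAP1LC3B2, which was at 2.60 to 4.23 CPM against 141 to 170 CPM for MAP1LC3B, so the split of reads between them is uncertain. LAMP2, a lysosomal membrane protein made in several splice forms, was listed as 2 transcripts. NM_013995.2, the LAMP2B form, held a median of 92.9% of the LAMP2 FPKM (92.2% to 93.3%), and NM_002294.2, the LAMP2A form that serves chaperone-mediated autophagy, held 7.07% (6.72% to 7.80%). By estimated counts, the LAMP2B form held 89.0%.

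Whether resistant cells differ from the parental line in this machinery was asked by comparing the 4 BR with the 4 WT libraries, SI-2 and vehicle together. This fit treats the 4 libraries of a line as independent. Libraries of a line with the same replicate number deviated together (r across genes of 0.44 in WT and 0.37 in BR cells). Its SEs and intervals may therefore be too narrow and its p-values too low. None of the 37 genes tested passed an adjusted p of 0.05 (edgeR quasi-likelihood F-test, Benjamini-Hochberg adjustment over 13520 genes), where 49 of all genes (0.362%) did, and the smallest adjusted p of the 37 was 0.236. Unadjusted p-values under 0.05 were found for 4 of the 37 genes, against 14.4% of all genes, so the autophagy genes did not exceed the background. BR cells had the higher level for 19 of the 37 and the lower for 18, and the median of the 37 log2 fold changes was 0.00, as over all genes. In the comparisons of 2 libraries with 2, edgeR called 0 of the 37 genes with vehicle (0% of 13896 genes) and 0 with SI-2 (0.0072%), and 0 of the 37 had an unadjusted p under 0.05 in either (3.89% and 4.09% of all genes).

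The 4 genes at an unadjusted p under 0.05 were CALCOCO2, WIPI1, ATG4C and WIPI2. CALCOCO2 (NDP52) is a cargo receptor for bacteria and damaged mitochondria. It was at 98.5, 146, 75.4 and 128 CPM in the WT libraries (vehicle 1 and 2, then SI-2 1 and 2) and at 96.9, 58.3, 73.3 and 58.2 CPM in the BR libraries in the same order. Its mean was 112 ± 31.2 CPM in WT and 71.7 ± 18.3 in BR cells (SD, n = 4), and the groups overlapped, since both first BR libraries lay within or near the WT range. The log2 fold change was -0.64 (SE 0.22, 95% interval -1.12 to -0.16), with an adjusted p of 0.236 by edgeR, and -0.56 without the second BR library with SI-2.

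WIPI1 binds the lipid that the PIK3C3 complex makes and helps to recruit the conjugation enzymes. It was at 65.5, 51.0, 38.4 and 50.9 CPM in WT and at 45.6, 23.0, 41.4 and 19.3 CPM in BR libraries, a log2 fold change of -0.67 (SE 0.27, 95% interval -1.26 to -0.09) with an edgeR adjusted p of 0.291. The 2 low values were both second BR libraries, and the first BR libraries lay among the WT values. WIPI2, its paralog and the form that recruits ATG16L1, went the other way, at 93.4, 80.9, 91.6 and 87.1 CPM in WT and 103, 97.5, 106 and 98.4 CPM in BR libraries. Every BR value of WIPI2 lay above every WT value, but the log2 fold change was only 0.20 (SE 0.09, 95% interval 0.01 to 0.39, edgeR adjusted p of 0.328). ATG4C, a protease that trims ATG8 proteins, was at 16.2, 20.3, 16.5 and 19.2 CPM in WT and 13.6, 14.4, 15.1 and 16.0 CPM in BR libraries, with every BR value below every WT value and a log2 fold change of -0.29 (SE 0.12, edgeR adjusted p of 0.304). Without the second BR library with SI-2, WIPI1 was at -0.49 and WIPI2 at 0.21, with unadjusted p-values from edgeR of 0.0647 and 0.063.

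LAMP2 was the third gene whose groups did not overlap. It was at 107, 108, 109 and 112 CPM in WT and at 132, 113, 136 and 118 CPM in BR libraries, a log2 fold change of 0.20 (SE 0.09) with an edgeR adjusted p of 0.349. Non-overlapping groups were thus found for 3 of the 37 genes, against 8.14% of all genes tested, which is close to the background.

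**Figure D2:**
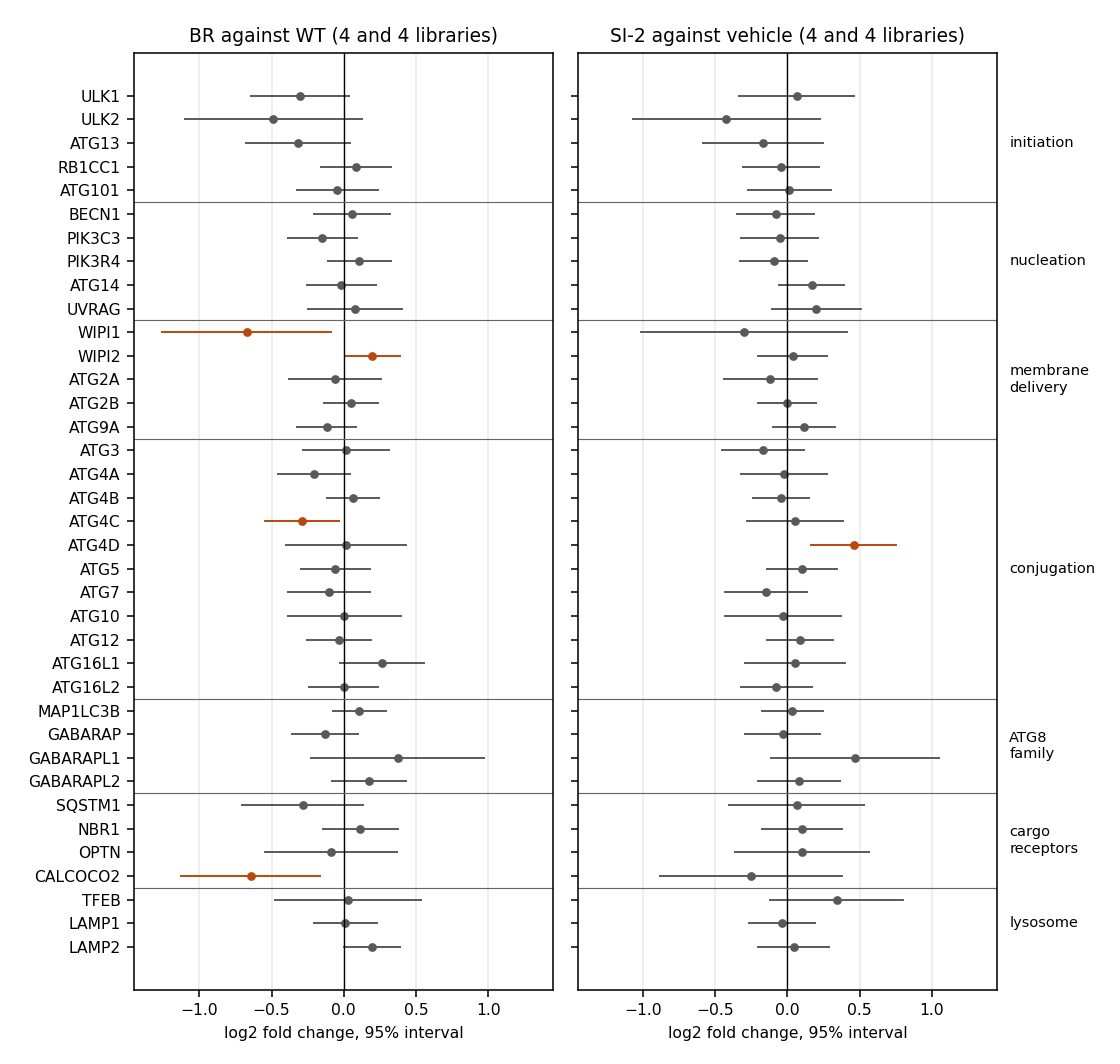
Log2 fold change (point) with its 95% interval (line) of 37 autophagy genes for BR against WT and for SI-2 against vehicle, from edgeR fits of 4 against 4 libraries. Orange marks an unadjusted p under 0.05, which no gene kept after adjustment. Most intervals of BR against WT include 0, and ULK2, WIPI1 and GABARAPL1 have the widest.

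By role, the initiation complex had 1 gene higher and 4 lower in BR cells, none at an unadjusted p under 0.05. ATG13, the adaptor that holds ULK1 in the complex, was at 184, 208, 143 and 185 CPM in WT and 177, 119, 167 and 115 CPM in BR libraries (log2 fold change -0.32, SE 0.16, edgeR adjusted p of 0.408). ULK1, the kinase that starts autophagy, was at 31.7, 36.9, 29.1 and 43.0 CPM in WT and 31.6, 24.5, 33.9 and 24.2 CPM in BR libraries (log2 fold change -0.30, SE 0.15). In both genes the second BR libraries were the lowest of all 8, and the first ones lay within the WT range. RB1CC1 (FIP200) and ATG101, further subunits, had log2 fold changes of 0.08 and -0.04. The lipid kinase complex moved little, from -0.15 for PIK3C3, the catalytic subunit, to 0.11 for PIK3R4, its regulatory subunit, with BECN1, ATG14 and UVRAG between them. ATG2A, ATG2B and ATG9A, which feed lipid into the growing membrane, were between -0.12 and 0.05.

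The conjugation enzymes had 6 genes higher and 5 lower, between -0.29 (ATG4C) and 0.27 (ATG16L1). ATG16L1 guides LC3 attachment and was at 21.3, 18.2, 24.2 and 16.6 CPM in WT and 25.4, 21.9, 25.8 and 23.4 CPM in BR libraries, with overlapping groups. The E1-like and E2-like enzymes ATG7, ATG3 and ATG10 were at -0.10, 0.02 and 0.00, and ATG5 and ATG12, which form a conjugate, at -0.06 and -0.03. In the ATG8 family, MAP1LC3B was at 141, 148, 150 and 152 CPM in WT and 149, 170, 156 and 162 CPM in BR libraries, a log2 fold change of 0.11 whose 95% interval ran from -0.07 to 0.29. GABARAPL1 had the largest positive value of the 37, 0.38, at 1.54, 2.77, 3.02 and 2.78 CPM in WT and 1.92, 3.50, 3.62 and 4.06 CPM in BR libraries. At these low levels its interval ran from -0.22 to 0.97.

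Among the other receptors, SQSTM1, which gathers ubiquitylated proteins, was at 221, 421, 270 and 425 CPM in WT and at 261, 287, 269 and 279 CPM in BR libraries. The WT values fell into a low and a high pair by replicate number, and the BR values lay close together near the upper value of the low pair. The mean was 334 ± 104 CPM in WT and 274 ± 11.8 CPM in BR cells (SD, n = 4). The log2 fold change was -0.29 (SE 0.19, 95% interval -0.71 to 0.13). NBR1, a receptor related to p62, and OPTN, a receptor for damaged mitochondria, were at 0.12 and -0.09. TFEB was at 18.8, 23.1, 26.2 and 28.4 CPM in WT and 13.5, 30.7, 25.4 and 28.9 CPM in BR libraries, a log2 fold change of 0.03 with a 95% interval from -0.48 to 0.54. LAMP1 was at 127, 135, 120 and 142 CPM in WT and at 127, 145, 118 and 139 CPM in BR libraries, a log2 fold change of 0.01 with a 95% interval from -0.21 to 0.23. The interval of LAMP1 is narrow and that of TFEB wide, and the first BR library with vehicle had the lowest TFEB of the 8. Without the second BR library with SI-2 both turned slightly negative, to -0.058 for TFEB and -0.014 for LAMP1.

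Since TFEB binds the CLEAR motif in promoters of lysosome genes, the promoters of these genes were searched for its core, CACGTG, and for TCACGTGA on both strands. RefSeq promoter sequences (GRCh38.p14, 250 bases before to 50 after a start, a build other than that of the deposited tables) were found for 33 of the 38 genes, with 41 starts. LAMP2, MAP1LC3A, RB1CC1, UVRAG and ATG4D had none in the table. CACGTG was in 3 of the 41 promoters, those of ATG14, ATG3 and LAMP1, and in 7.26% of all 35116 promoters. TCACGTGA, which contains CACGTG, was in 2 of the 41, those of ATG3 and LAMP1, and in 0.98% of all. LAMP1 held 6 copies of CACGTG in its window, and it was the only one of the 35116 promoters with that many. The stretches upstream of the start are shown here, in the direction of the gene, because they are the promoters among the 38 genes that hold this core, with CACGTG in capitals.
LAMP1, chr13:113296989-113297238, plus strand: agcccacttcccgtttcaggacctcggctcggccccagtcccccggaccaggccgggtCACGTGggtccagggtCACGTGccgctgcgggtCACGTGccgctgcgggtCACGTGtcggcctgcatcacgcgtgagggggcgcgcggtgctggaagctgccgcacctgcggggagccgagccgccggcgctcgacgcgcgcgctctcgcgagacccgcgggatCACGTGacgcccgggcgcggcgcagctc
ATG14, chr14:55411831-55411890, minus strand: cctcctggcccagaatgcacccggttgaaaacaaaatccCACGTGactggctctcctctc
ATG3, chr3:112561963-112562022, minus strand: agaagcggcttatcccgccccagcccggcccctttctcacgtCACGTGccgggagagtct
The stretch of LAMP1 holds 5 of its copies, the first 192 and the last 28 bases before the start, and a sixth spans the start. ATG14 has its copy 21 bases before the start. ATG3 has the copy shown 18 bases before the start and a second one 5 bases past it, outside the stretch shown, and the second is the one within TCACGTGA. In LAMP1, TCACGTGA holds the last copy before the start and the copy that spans it. The 3 genes had log2 fold changes of 0.01 (LAMP1), -0.02 (ATG14) and 0.02 (ATG3) between BR and WT cells, none with an unadjusted p under 0.05.

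SI-2 against vehicle gave no gene past an adjusted p of 0.05 in edgeR, neither among the 37 genes nor among all 13520 (0%), with 4 against 4 libraries. An unadjusted p under 0.05 was found for 1 of the 37, against 2.22% of all genes. This gene was ATG4D, a protease of the ATG4 family, at 12.9, 11.5, 10.5 and 12.4 CPM with vehicle (WT 1 and 2, then BR 1 and 2) and 15.1, 16.3, 19.1 and 14.4 CPM with SI-2 in the same order. All 4 treated values lay above all 4 vehicle values. The mean was 11.8 ± 1.03 CPM with vehicle and 16.2 ± 2.08 with SI-2 (SD, n = 4), and the log2 fold change 0.46 (SE 0.13, 95% interval 0.16 to 0.75, edgeR adjusted p of 0.999). It was 0.37 in WT and 0.55 in BR cells, and 0.51 over both lines without the second BR library with SI-2. ATG14, the subunit that directs the lipid kinase to autophagy, was the other gene whose groups did not overlap, at 22.4, 21.2, 19.7 and 19.9 CPM with vehicle and 22.7, 22.5, 24.6 and 23.6 with SI-2 (log2 fold change 0.17). Groups that did not overlap were found for 1.44% of all genes, in either direction, and for 2 of the 37.

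Within each line, edgeR called 0 of the 37 genes with SI-2 in BR cells (0% of all genes) and 0 in WT cells (0%), with an unadjusted p under 0.05 for 1 gene (ATG4D) in BR cells, where 1.2% of all genes had one, and for 0 in WT cells, where 0.533% did. The interaction of line and SI-2, which tests whether the effect of SI-2 differed between lines, called 0 of the 37 (0% of all genes), and 0 of the 37 had an unadjusted p under 0.05 (0.533% of all genes). The median log2 fold change of the 37 genes for SI-2 was 0.01 over both lines, and values ran from -0.42 (ULK2) to 0.47 (GABARAPL1), both of them low in abundance. SQSTM1, MAP1LC3B, ULK1 and LAMP1 were between -0.04 and 0.06, and TFEB was at 0.34 with a 95% interval from -0.12 to 0.80. The half-width of the 95% interval was 0.29 in the median gene, so for many of these genes smaller changes would not reach an unadjusted p of 0.05. A call after adjustment over all genes needs larger changes still.

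The 2 libraries of a condition often differed by as much as the lines did. The median absolute log2 difference between the 2 libraries of a condition was 0.19 in WT with vehicle, 0.15 in WT with SI-2, 0.22 in BR with vehicle and 0.24 in BR with SI-2 over the 37 genes. Between the means of conditions it was 0.12 for BR against WT with vehicle, 0.13 with SI-2, and 0.08 and 0.09 for SI-2 in WT and BR cells. A mean of 2 libraries varies less than a single one, so these distances are on unequal footing and are given as a description. Over all 13896 genes the corresponding values were 0.21 to 0.24 between libraries and 0.11 to 0.16 between conditions. Differences of more than 1.25 fold between the 2 libraries were found for 7 and 10 of the 37 genes in WT cells (vehicle, SI-2) and for 13 in BR cells under either treatment. The share of all genes past this limit was not taken, so these counts do not set the autophagy genes apart.

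**Figure D3:**
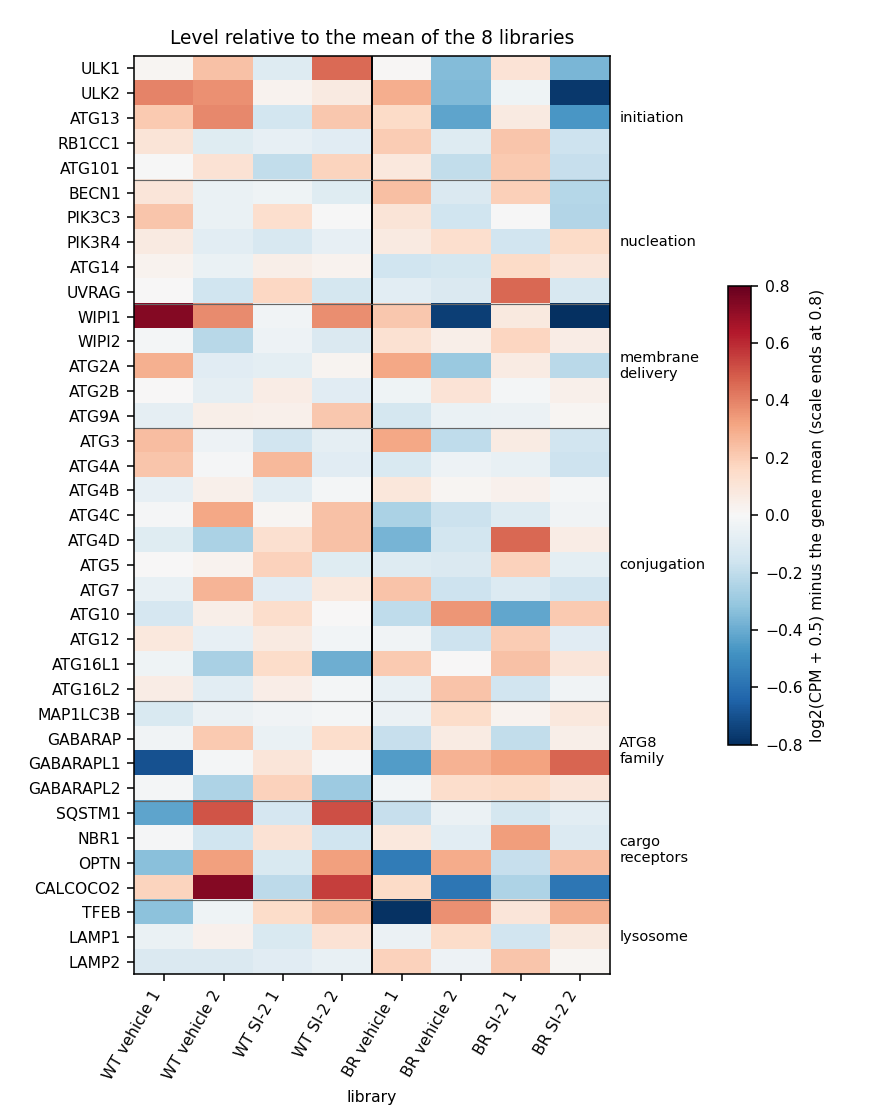
Level of 37 autophagy genes in each library relative to the gene's mean over the 8 libraries, as log2(CPM + 0.5), with the scale ending at 0.8 on either side. The second BR libraries are blue for ULK1, ULK2, ATG13, WIPI1 and CALCOCO2, and the second WT libraries are red for SQSTM1, CALCOCO2 and OPTN.

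With the 4 second libraries set against the 4 first ones, edgeR called 1 of the 37 genes (0.925% of all genes), and 10 of the 37 had an unadjusted p under 0.05 (16.9% of all genes). The gene called was OPTN, at 74.8, 86.9, 64.0 and 83.1 CPM in the first libraries (WT vehicle, WT SI-2, BR vehicle, BR SI-2) and at 119, 118, 116 and 112 CPM in the second ones. Each second library lay above every first one, and the log2 fold change was 0.59 (SE 0.10, 95% interval 0.36 to 0.82, edgeR adjusted p of 0.0385). Without the first WT library with vehicle its adjusted p was no longer under 0.05, as for 6 of the other 7 omissions. Among these, omission of the second BR library with SI-2 gave an edgeR adjusted p of 0.0842 and a log2 fold change of 0.61. Of the 37 genes, 9 had groups that did not overlap, against 12% of all genes, in either direction: OPTN, SQSTM1, GABARAP and LAMP1 were higher and NBR1, BECN1, RB1CC1, PIK3C3 and UVRAG lower in the second libraries. The labels do not say whether a replicate number marks a shared day or batch.

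Libraries of a line with the same number deviated together, so a fit with a term for each line and replicate number and a term for SI-2 was added after the data had been seen, and its p-values rest on that grouping. It tested whether the difference between replicate numbers was the same in both lines. Of the 37 genes, edgeR called 6, all lower in the second libraries of BR than of WT cells relative to the first, against 13.2% of all genes called. That count is close to the background, so it does not set the autophagy genes apart. They were 3 of the 5 initiation genes (ULK1, ATG13 and ATG101, with differences of log2 fold changes of -0.82, -0.83 and -0.59), WIPI1 (-1.05) and the receptors SQSTM1 (-0.69) and CALCOCO2 (-1.19). CALCOCO2 had the lowest adjusted p, 0.0044 by edgeR, with 146 against 98.5 and 128 against 75.4 CPM in WT cells but 58.3 against 96.9 and 58.2 against 73.3 CPM in BR cells. WIPI1 did not move one way in WT cells, where it was lower in the second library with vehicle and higher with SI-2, while in BR cells both second libraries were far below the first ones (23.0 against 45.6 and 19.3 against 41.4 CPM). ATG101 was at 37.4, 40.7, 32.8 and 42.6 CPM in WT and at 39.8, 32.7, 43.4 and 32.9 CPM in BR libraries, higher in the second libraries of WT and lower in those of BR cells. Without the second BR library with SI-2 it was no longer called (edgeR adjusted p of 0.0857) and the other 5 were. The count of 6 was 3 without the first WT library with SI-2 or the first BR library with vehicle, and 2 without the second WT library with SI-2.

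**Figure D4:**
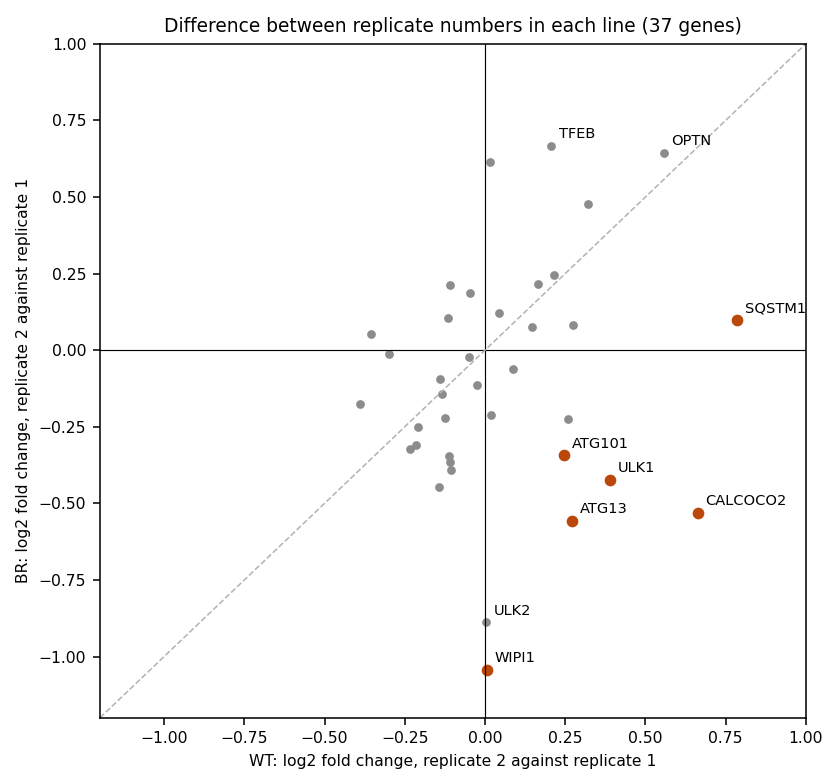
Log2 fold change of the second against the first libraries in WT cells (horizontal) and in BR cells (vertical) for 37 autophagy genes. The dashed line marks equal values in both lines, and orange points are the 6 genes whose difference between lines had an adjusted p under 0.05. OPTN lies near the line, and ULK1, ATG13, ATG101 and CALCOCO2 lie at the lower right, higher in the second WT and lower in the second BR libraries.

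Line by line in that fit, 5 of the 37 genes were called in WT cells (13.5% of all genes), and 10 in BR cells (16.0% of all genes). The count in WT cells is at the background and that in BR cells above it. In WT cells SQSTM1 (0.79), CALCOCO2 (0.66), OPTN (0.56) and ULK1 (0.39) were higher and GABARAPL2 (-0.36) lower in the second libraries. In BR cells WIPI1 (-1.04), ULK2 (-0.89), ATG13 (-0.56), CALCOCO2 (-0.53), ATG2A (-0.45), ULK1 (-0.42), BECN1 (-0.39) and RB1CC1 (-0.35) were lower and OPTN (0.64) and ATG10 (0.61) higher. GABARAPL2 was at 92.8, 79.0, 107 and 76.7 CPM in WT libraries, with both second ones lowest, and at 92.5, 103, 104 and 100 CPM in BR libraries. ULK2 was at 2.60, 1.49, 1.97 and 0.99 CPM and ATG2A at 91.0, 59.5, 76.8 and 63.1 CPM in BR libraries. BECN1 was at 91.9, 71.7, 88.9 and 66.3 CPM and RB1CC1 at 215, 174, 218 and 167 CPM there, and both second libraries lay below both first ones in each of these 4 genes. ATG10, the E2-like enzyme for ATG12, was at 9.21, 13.7, 7.89 and 12.4 CPM in BR libraries, with both second ones higher. In WT libraries, in the same order of samples, ULK2 was at 2.84, 2.77, 2.09 and 2.17, ATG2A at 89.6, 68.8, 69.6 and 74.6, and BECN1 at 83.1, 75.0, 75.9 and 72.7 CPM. RB1CC1 was at 201, 175, 179 and 176 and ATG10 at 9.67, 11.1, 11.8 and 10.7 CPM in the same WT libraries, without a split as wide as in BR cells for any of the 5 genes. The 5 calls in WT cells became 2, 1, 1 and 1 when 1 of the 4 WT libraries was left out and 3 without the second BR library of either treatment. The 10 calls in BR cells became 3, 1, 2 and 5 when a BR library was left out, in the order above. Without the second BR library with SI-2, ULK1, ULK2, ATG2A, BECN1, RB1CC1 and ATG10 were no longer called in BR cells (edgeR adjusted p-values of 0.0671 for ATG2A to 0.189 for ULK2), nor were ULK1 (0.0625) and GABARAPL2 (0.0522) in WT cells. OPTN had the same direction in both lines, and SQSTM1 differed by 0.79 between replicate numbers in WT cells against 0.10 in BR cells.

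**Figure D5:**
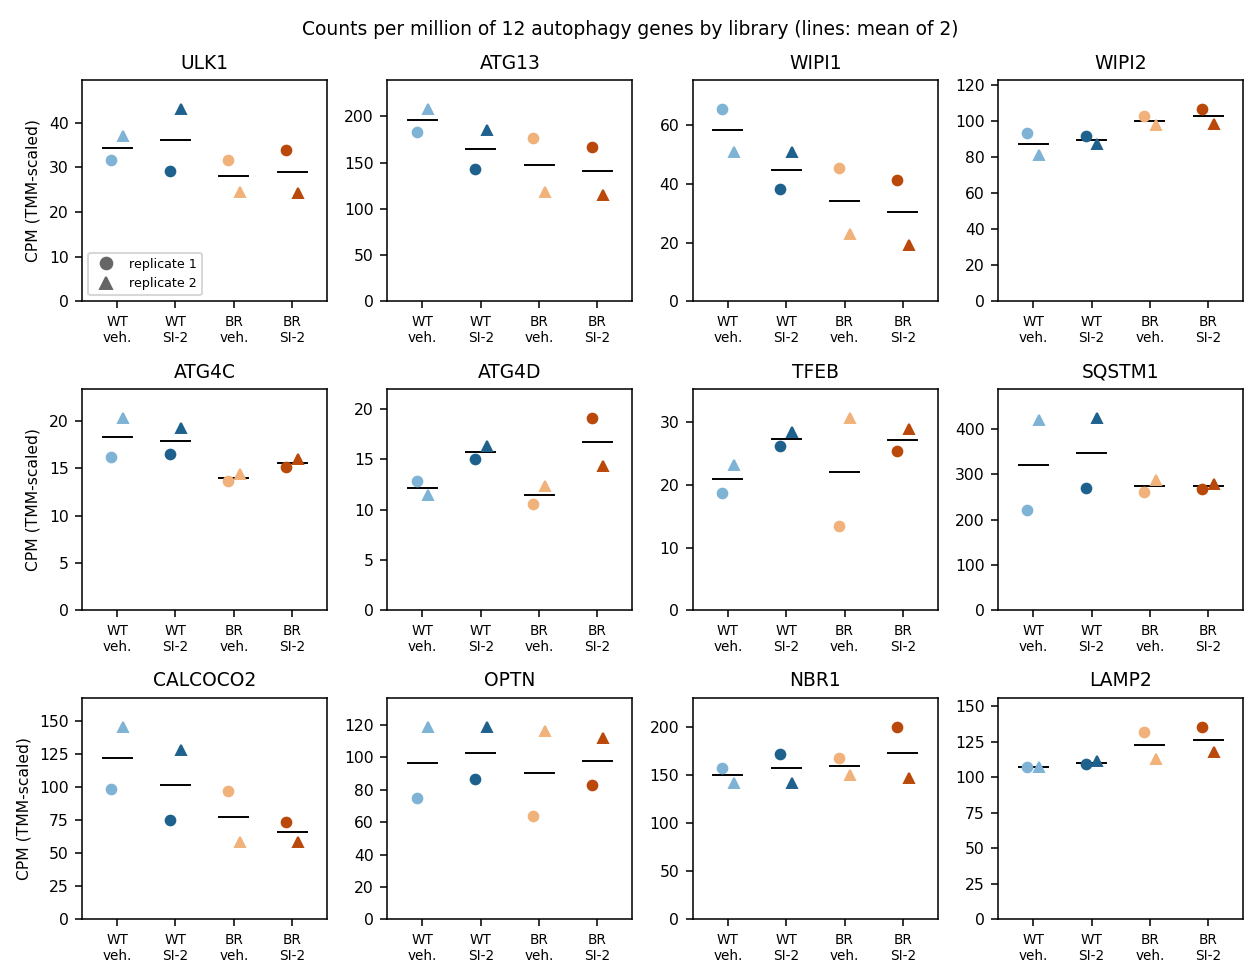
CPM of 12 autophagy genes in the 8 libraries, from 0, with circles for replicate 1, triangles for replicate 2 and a line for the mean of the 2. SQSTM1 lies farther apart by replicate number in WT than in BR cells, OPTN lies apart in all 4 conditions, and CALCOCO2 and ATG13 differ in opposite directions in the 2 lines.

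Several stress response genes moved with the same libraries. The first list was 25 genes of the ATF4 amino acid response, ATF4 itself included. Their median level, relative to each gene's mean, was 1.10 and 1.39 in the WT vehicle libraries and 0.89 and 1.29 with SI-2. In the BR libraries in the same order it was 1.05 and 0.69, and 0.87 and 0.66. In the fit by line and replicate number, 20 of the 26 genes of that list tested were called, all lower, against 13.2% of all genes. The corresponding values of 11 NRF2 response genes were 1.02, 1.06, 0.85 and 1.09 in WT and 1.09, 0.80, 1.06 and 0.82 in BR libraries, with 7 of 11 called, all lower. This list includes NFE2L2, the gene of NRF2 itself, which was not called. SLC7A11 is in both lists and counts as called in both, so the counts are not independent. Of 18 genes of the response to protein load, 8 were called, 7 lower and 1 higher. SQSTM1 is a known NRF2 target, and several autophagy genes are known ATF4 targets. The part of these responses in the autophagy genes was not tested.

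Promoters were also searched for the core of the antioxidant response element, TGACNNNGC, on both strands, and for an amino acid response element, TGATGNAA. The first was in the promoters of 4 of the 33 genes (ATG101, CALCOCO2, LAMP1 and MAP1LC3B). These were 4 of the 41 promoters of the 33 genes, against 13.3% of all promoters, so it was not more frequent here. The second was in 0 of the 33 and in 3.62% of all. The upstream stretches of CALCOCO2 and ATG101 are given, with the match in capitals, because both genes were called in the fit by line and replicate number.
CALCOCO2, chr17:48830885-48831034, plus strand: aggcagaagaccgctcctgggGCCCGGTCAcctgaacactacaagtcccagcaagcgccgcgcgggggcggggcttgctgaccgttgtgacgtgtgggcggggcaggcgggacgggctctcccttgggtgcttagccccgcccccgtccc
ATG101, chr12:52069828-52069977, plus strand: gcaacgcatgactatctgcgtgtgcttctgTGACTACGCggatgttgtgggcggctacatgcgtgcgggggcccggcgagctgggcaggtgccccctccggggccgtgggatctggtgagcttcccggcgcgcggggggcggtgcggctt
The match lies 129 bases before the start in CALCOCO2, on the opposite strand, and 120 bases before it in ATG101. LAMP1 and MAP1LC3B, which hold the same core, were not called in that fit. ULK1, ATG13, WIPI1 and SQSTM1 were called in it and hold no match in the promoters searched. A match of letters is a description, and none of the 4 is shown here to be bound by any factor.

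Further genes of the pathway were counted in lists of their own, to be read against the 0.362% of all genes called and the 14.4% at an unadjusted p under 0.05 between BR and WT cells. Of 42 regulators, fusion factors and other receptors tested, 0 were called between BR and WT cells and 6 (14.3%) had an unadjusted p under 0.05, a share close to the background. All 6 were lower in BR cells, among them STX17, the SNARE that fuses autophagosomes with lysosomes (log2 fold change -0.51, SE 0.10, edgeR adjusted p of 0.069), TRIM5 (-0.81), the endoplasmic reticulum receptor CCPG1 (-0.87) and WDR45, a relative of WIPI2 (-0.74). Their median was -0.12 (all genes, 0.00). Of 39 genes that control autophagy through mTORC1, AMPK and TFEB relatives, 0 were called and 5 (12.8%) had an unadjusted p under 0.05, a share below the background, 1 higher and 4 lower, including the mTORC1 inhibitors SESN1 (-0.53), SESN2 (-0.71) and DDIT4 (-0.89). Of 57 lysosomal proton pump subunits, enzymes and membrane proteins, 0 were called and 17 (29.8%) had an unadjusted p under 0.05, a share above the background, of which 16 were lower in BR cells, with a median of -0.12. The p-values of that fit may be too low, as stated above. In the comparisons of 2 libraries with 2, edgeR gave 2 of the 57 (3.51%) an unadjusted p under 0.05 with vehicle, against 3.89% of all genes. With SI-2 it gave 4 (7.02%), against 4.09% of all genes. The lower ones included CD63 at -0.80, the protease CTSD at -0.50 and PSAP, a precursor of sphingolipid activators, at -0.55, and the higher one was ATP6V1B2 at 0.25. CD63 too was split by replicate number in WT cells, at 203, 351, 182 and 346 CPM, against 169, 153, 159 and 141 CPM in BR libraries. DDIT4 was at 467, 830, 264 and 711 CPM in WT and at 460, 232, 321 and 212.5 CPM in BR libraries. The fit by line and replicate number called 6 of the 42, 9 of the 39 and 6 of the 57 genes, against 13.2% of all genes. Of these calls, 0, 3 and 2 were higher and 6, 6 and 4 lower. CD63, CTSD, PSAP, DDIT4, SESN2, WDR45 and TRIM5 were among the lower ones, and RRAGA and ATP6V1D among the higher ones. CCPG1 was not called in this fit. SI-2 against vehicle over both lines called 0 genes in each of these 3 lists. It gave 0, 2 and 1 genes an unadjusted p under 0.05, against 2.22% of all genes, and the 3 were higher with SI-2 (FLCN, PRKAB1 and NPC1). Within a line, CCPG1 was the only gene of these lists at that threshold. It was lower with SI-2 in BR cells (log2 fold change -0.66, unadjusted p of 0.0192 by edgeR), where 1.2% of all genes were under 0.05.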

How the data were processed

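Total RNA was sequenced on BGISEQ-500. The authors' deposited table gives an estimated count and an FPKM per gene and library, and a second table the same per transcript. The submitters' processing notes name BWA, Bowtie2, RSEM and hg19 without their roles. Estimated counts need not be whole, since shared reads were divided (15 of the 38 genes had whole counts throughout). The 8 columns of condition averages in each table and the authors' DEGseq fold changes and p-values of SI-2 against vehicle were not used.

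Counts were rounded, filtered with filterByExpr (13896 genes by condition, 13520 by 2 groups), scaled by TMM and tested in edgeR 4.0.16 under R 4.3.3 by its quasi-likelihood F-test, and p-values were adjusted over all genes by the Benjamini-Hochberg method. CPM values are TMM-scaled. Intervals are 95%. The coefficient of variation between replicates was 0.179. The fit of 4 conditions, that of BR against WT over both treatments and that by line and replicate number were run on simulated counts. Apart from genes changed on purpose, these were drawn independently for each library. They therefore lack the deviation that libraries of a line with the same number shared. Alternatives were upper-quartile scaling, scaling by library size, no filter, a minimum CPM of 1 in 2 libraries, a replicate block, DESeq2 1.42.0, limma 3.58.1 on log2(FPKM + 1) and log2(FPKM + 0.1), condition terms, fits of the 4 libraries compared, and omission of each library. The fit by line and replicate number, and a replicate block within each line, were chosen after seeing the data.

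The 38 genes, the lists and the rule for naming were chosen with earlier results of these data known. Values by library are given for genes that were called, had an unadjusted p under 0.05 in a comparison of the design, had the 3 largest or 3 smallest changes between BR and WT at a mean count of at least 50, and for SQSTM1, MAP1LC3B, GABARAPL1, ULK1, TFEB, LAMP1 and LAMP2. Any other gene was named with its values in view. Figures were drawn with matplotlib 3.10.9.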

Additional observations from a re-analysis of the deposited data

Results flagged for a closer look

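The levels of 22 autophagy genes were searched for a single library far from the other 3 of its line, 44 groups in all, of which chance flags about 1 in 20. RB1CC1 in WT cells was the 1 group that met the criterion, because the first library with vehicle was at 201 CPM and the other 3 were at 175 to 179 CPM.

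In 6 of the 37 genes tested, the difference between replicate numbers differed between WT and BR cells by a test of that difference. This test called 13.2% of all genes, so the count is close to the background. The differences of log2 fold changes, BR minus WT, were -0.82 for ULK1, -0.59 for ATG101, -0.83 for ATG13, -1.05 for WIPI1, -0.69 for SQSTM1 and -1.19 for CALCOCO2. The fit was chosen after the data had been seen, and the labels do not say whether a replicate number marks a shared day or batch.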

How the results depend on the processing

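In the comparisons of line, of SI-2 and of their interaction, 0 of the 37 autophagy genes were called under every alternative that was run, the replicate block included. Libraries with the same number deviated together within a line (r across genes of 0.44 in WT and 0.37 in BR cells) but hardly across lines (-0.12 to 0.20), so the numbers were not taken as pairs. A replicate block raised the genes called between BR and WT from 49 to 155 with 0 autophagy genes among them, and the block within each line left SI-2 at 0 autophagy genes. BR against WT gave 399 genes with DESeq2, 18 with condition terms and 21 to 125 with 1 library left out. Replicate 2 against replicate 1 gave 125 genes, 740 with DESeq2, 196 with upper-quartile scaling, 62 and 56 with limma, 0 with condition terms and 0 to 93 with 1 library left out. Without the first BR library with SI-2, 67 genes were called with SI-2 in BR cells and 67 between BR and WT with SI-2, where the 1 library left is the one with COL1A1 that stood apart, and its spread is assumed to be that of the other groups. DESeq2 called 28 and 34 genes between BR and WT with vehicle and with SI-2.

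The autophagy genes called between replicate numbers were 0 with condition terms and 0 to 1 with 1 library left out. Between line and replicate number they were 2 to 7, in WT cells 1 to 4 and in BR cells 1 to 11. The median of the 37 genes moved by more than the replicate spread of 0.043 with upper-quartile scaling (0.017 between replicates, -0.036 between line and replicate, -0.024 in BR cells), with library size only (0.016 and -0.015 for the last 2), with limma on log2(FPKM + 1) (0.013 and -0.016) and with limma on log2(FPKM + 0.1) (0.0016, 0.013 and -0.017). With 1 library left out it ran from -0.073 to 0.0067 for BR against WT with vehicle, -0.10 to 0.025 with SI-2, -0.074 to 0.022 for both, -0.032 to 0.095 for SI-2 in BR cells, -0.069 to 0.10 for the interaction, -0.13 to 0.0019 for line and replicate, -0.064 to 0.025 in WT and -0.13 to -0.069 in BR cells. TFEB ran from -0.095 to 0.23 and LAMP1 from -0.036 to 0.063 between BR and WT, and LAMP1 was -0.0028 with upper-quartile scaling. The cause of these moves was not tested. With 2 libraries a condition, only the larger changes could be detected.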

Other observations

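Transcript levels are model estimates and were described without a test. SQSTM1 was listed as 4 transcripts, of which NM_003900.4 held a median of 59.0% (50.9% to 65.6%) and XM_017010010.1 37.4% (30.6% to 47.0%) of the gene's FPKM. MAP1LC3B was listed as a single transcript. ULK1 and ATG16L1 had 3 transcripts each with a mean of at least 1 FPKM, and their shares varied widely between libraries of one condition. NM_017974.3 of ATG16L1 held 6.19% to 40.2% of the gene's FPKM in the WT libraries and 35.3% to 57.6% in the BR libraries, and NM_003565.2 of ULK1 held 36.0% to 83.1% in WT and 36.9% to 74.1% in BR libraries. The ranges of the 2 lines overlap in both cases.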
